A study of Homo sapiens with 6 samples.

Results

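The RNA content of 2 established human melanoma lines, SK-Mel-103 and UACC-62, was compared through the input samples of a CELF1 RNA immunoprecipitation (RIP) study. These were 3 of the 6 samples of the series, namely 1 input of SK-Mel-103 (replicate 1) and both inputs of UACC-62 (numbered 1 and 3). The other 3 samples are the matching immunoprecipitates (IP), and were not compared here. Input reads were taken per gene from exonic bins present in all 3 deposited files, which held for 7652 of the 20176 protein-coding genes in the annotation. According to the study, SK-Mel-103 carries mutant NRAS with wild-type BRAF, whereas UACC-62 carries mutant BRAF with wild-type NRAS. Each is a single cell line, and no treatment of the cells is described. Cells were grown in serum-containing medium, fixed in formaldehyde and lysed by sonication, and ribosomal RNA was depleted before sequencing, so that input represents total RNA of crosslinked lysates. The labels describe the UACC-62 samples as biological duplicates. SK-Mel-103 was sequenced once, and the only replicate error was therefore the gap between the UACC-62 inputs.

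Melanoma cells retain to varying degrees the programme of the pigment cells they derive from. MITF, a basic helix-loop-helix transcription factor, drives the genes of pigment synthesis together with SOX10, and both are commonly used to mark the melanocytic state. In contrast, lines described as dedifferentiated or invasive typically have little MITF and express the receptor tyrosine kinase AXL with mesenchymal, adhesion and TGF-beta-responsive genes. Mutant NRAS and mutant BRAF both feed the ERK cascade, which in turn induces its own feedback inhibitors of the Sprouty and DUSP families.

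The depth available was 8453517 input reads for SK-Mel-103 and 10161917 and 8900292 for replicates 1 and 3 of UACC-62, counted in the listed bins of 20 bp. Between 63.8% and 68.3% of these reads fell in exonic bins common to all files. Values for UACC-62 are given in this order throughout. Listed bins without any input read made up 9.69% of those of SK-Mel-103 and 15.9% and 29.2% of those of UACC-62, and the part of this in the differences was not tested. Levels are given as RPM, the reads of a gene for every 1e6 reads of the file total, and differences as log2(RPM + 0.5) of SK-Mel-103 minus the mean of both UACC-62 inputs. An adjusted p is that of limma after Benjamini-Hochberg correction over all genes tested, and a gene was called at an adjusted p under 0.05. The lone SK-Mel-103 sample was assumed to vary like UACC-62, so that variation between cultures of SK-Mel-103 was not measured. The error of a gene was largely borrowed from other genes (1 residual and 56.99 prior degrees of freedom). The size of an adjusted p therefore depends on the genes kept. For MITF and TRIB2 it rose by many orders of magnitude under either alternative filter, at an unchanged difference, and is not a measure of replication. A bin was listed only where the authors' peak caller found IP signal over input. A gene without listed bins is thus not a gene without RNA, and reads in each file's own listed bins are given side by side, with no fold change. The listed bins of a gene are those centred in its exons and in those of no other protein-coding gene. In such bulk samples, fewer cells expressing a gene and less RNA per cell cannot be told apart.

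A total of 6813 genes passed the filter of a mean of at least 1 RPM. Of these, 1263 were higher in SK-Mel-103 (18.5%) and 1538 were lower (22.6%). These shares are the background for the counts in the gene lists below. In none of the 2801 called genes did SK-Mel-103 lie between the UACC-62 values. The call itself favours this outcome, which therefore adds no support. The median absolute difference between the lines was 0.53 on the log2 scale, against 0.20 between the UACC-62 inputs. Differences of at least 1 (on the log2 scale, either direction) were found in 1545 genes between the lines and in 144 genes between the UACC-62 inputs. The median difference over all genes tested was -0.02. When reads from each file's own listed bins replaced the common bins, 2786 of the 2801 called genes had the same sign, but the median absolute gap between the UACC-62 inputs rose to 0.41, and only 264 genes were called higher and 247 lower. Of the 87 genes named by rule and tested, 58 lost their call in that setting, while 68 of the 86 called ones kept it in every setting based on common bins. Those of the others that are reported are marked below.

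**Figure D1:**
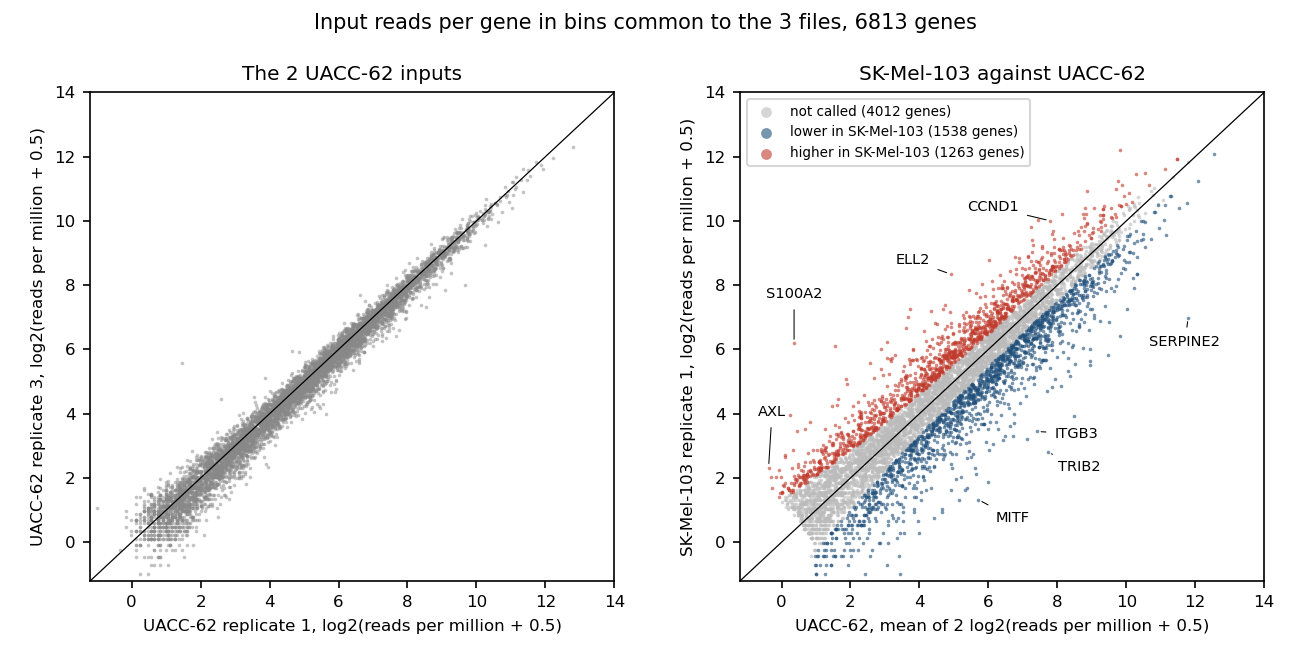
Input level of each of 6813 genes on the scale log2(RPM + 0.5), for UACC-62 replicate 1 against replicate 3 (left) and for the mean of both against SK-Mel-103 (right). Each point is a gene, the line marks equal values, and the right panel spreads far more widely around it (median absolute difference 0.53, against 0.20 on the left), with 1263 genes called higher in SK-Mel-103 and 1538 called lower.

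The largest positive differences among called genes with a mean of at least 10 RPM were found for S100A2, MB21D2, MAP1B, ELL2, MT2A, GLIPR1, BCAT1, S100A16, H2AC8 and KIF5C. S100A2, a calcium-binding S100 protein, had 72.4 RPM in SK-Mel-103 and 0.787 RPM in each UACC-62 input (log2 difference 5.82, SE 0.36, adjusted p = 2.57e-20), from a single common bin. ELL2, a component of transcription elongation complexes, was measured over 80 common bins, with 324.7 RPM in SK-Mel-103 against 30.3 and 28.5 RPM (log2 difference 3.44, SE 0.22, adjusted p = 7.93e-20). The microtubule-associated protein MAP1B had 154 RPM against 10.8 and 14.9 RPM (log2 difference 3.55, SE 0.25, adjusted p = 3.78e-18). BCAT1, which initiates the breakdown of branched-chain amino acids, and the neuronal kinesin KIF5C showed log2 differences of 3.16 and 3.02. At the other end were TRIB2, SERPINE2, TIMP3, MITF, LITAF, ITGB3, SPRY4, SAT1, ADGRG6 and SLC1A4. SERPINE2, a secreted inhibitor of serine proteases, had 126.9 RPM in SK-Mel-103 against 3711 and 3408 RPM (log2 difference -4.80, SE 0.18, adjusted p = 6.06e-31). The pseudokinase TRIB2 had 6.51 RPM against 213 and 209 RPM (log2 difference -4.91, SE 0.22, adjusted p = 1.01e-26). TIMP3, an inhibitor of matrix metalloproteinases, had 14.7 RPM against 548 and 231 RPM (log2 difference -4.56, SE 0.25, adjusted p = 1.83e-22). Except for TIMP3, SLC1A4 and GLIPR1, whose UACC-62 inputs were 1.24, 0.74 and 1.36 apart on the log2 scale, the gap between the UACC-62 inputs was at most 0.67 for these 20 genes. MT2A and H2AC8 belong to families of nearly identical genes, between which reads may have been divided.

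The reads behind these differences can be followed down to single bins. The coding bins below are the ones richest in input reads for 6 genes with differences in either direction, printed 5′ to 3′ on the transcript strand from the GRCh37 genome to show what a bin of 20 bases holds.
TRIB2: ctcatagtaacatcaaccaa
SERPINE2: catccgacataatcctacag
ITGB3: ctggaagtgcgtgacctccc
CCND1: cggggagcgtggtggccgca
NRAS: gatgggactcagggttgtat
DEK: agaaaccccctacagatgaa
The TRIB2 bin (chr2:12863441-12863460, plus strand) held 0 reads in SK-Mel-103 and 37 and 32 reads in the UACC-62 inputs. The SERPINE2 bin (chr2:224842261-224842280, minus strand) held 39 reads against 1399 and 1114, and the one in the integrin gene ITGB3 (chr17:45368341-45368360, plus strand) held 2 reads against 72 and 74. Counts ran the other way for CCND1 (chr11:69462801-69462820, plus strand), with 83 reads against 21 and 9, and for DEK (chr6:18236761-18236780, minus strand), with 205 reads against 89 and 76. The NRAS bin (chr1:115251181-115251200, minus strand) held 34 reads against 60 and 67. All 6 genes were called, so the direction in these bins adds no support.

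Regulators of the melanocyte lineage were lower in SK-Mel-103 for 5 of the 7 members that could be tested, out of 14 in the list, with a median log2 difference of -1.003 against -0.02 over all genes tested. MITF (chr3:69788607-70017487, plus strand) had 2.01 RPM in SK-Mel-103 and 51.2 and 52.1 RPM in the UACC-62 inputs (log2 difference -4.38, SE 0.26, adjusted p = 5.62e-21). These values rest on 9 common bins, none of them coding. Over all bins listed per file, MITF had 18 reads in SK-Mel-103, in 10 bins, and 6034 and 5000 reads in UACC-62, in 140 and 155 bins. SNAI2, a zinc-finger factor required for melanocyte development, had 13.5 RPM against 31.2 and 36.7 RPM (log2 difference -1.30, SE 0.25, adjusted p = 2.69e-05). TFAP2A, an AP-2 factor that acts with MITF at pigment genes, and LEF1, an effector of Wnt signalling, had log2 differences of -1.13 (adjusted p = 0.00574) and -1.003 (adjusted p = 0.000253). Both calls were lost in 1 setting on common bins, TFAP2A with DESeq2 (adjusted p = 0.167) and LEF1 with coding bins only (adjusted p = 0.0524). SOX10, the neural crest factor that acts upstream of MITF, was present in both lines, with 85.2 RPM in SK-Mel-103 against 158.8 and 101.9 RPM. Its log2 difference was -0.58 (SE 0.22, adjusted p = 0.0306), a call that held in 5 of 10 alternative settings (adjusted p from 0.0244 to 0.458). Against a single UACC-62 input, the SOX10 difference was -0.26 without replicate 1 and -0.90 without replicate 3. CREB1, the cAMP-responsive factor that induces MITF, was the only regulator called higher (0.77, adjusted p = 0.0137). ZEB2 had 30.3 RPM against 38.4 and 44.9 RPM and was not called (adjusted p = 0.127). Bins of EDNRB, ERBB3 and MC1R were listed in both UACC-62 files and not in SK-Mel-103. Of these, the receptor ERBB3 had 2046 and 1666 reads and the endothelin receptor EDNRB had 983 and 592. PAX3 and TFE3 had listed bins in all files but none in common, and KIT and TFEB had no listed bin.

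Genes of pigment synthesis and melanosomes followed the same direction. Among 14 tested of 28 members, 7 were lower, 1 was higher and 6 were not called, and the median log2 difference was -0.69. MYO5A, the motor that carries melanosomes to the cell periphery, had 96.5 RPM in SK-Mel-103 against 360.6 and 322 RPM (log2 difference -1.82, SE 0.20, adjusted p = 2.61e-11). LYST, which controls the size of lysosome-related organelles, had 1.06 RPM against 12.1 and 7.42 RPM (log2 difference -2.67, SE 0.36, adjusted p = 1.44e-08). The kinase gene DSTYK (-1.74, adjusted p = 2.46e-09) and the copper transporter ATP7A (-1.60, adjusted p = 0.00131) were lower too, although ATP7A was not called on coding bins alone (adjusted p = 0.16). The remaining genes called lower were RAB38, HPS5 and AP3D1, all with roles in the trafficking of melanosome cargo, with log2 differences of -1.38, -1.24 and -0.78. The only gene called higher was BLOC1S2, a subunit of the complexes that sort such cargo (0.63, adjusted p = 0.0241).

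The defining pigment genes could not be tested, since none had a bin common to all files. TYR, the rate-limiting enzyme of melanin synthesis, had no listed bin in SK-Mel-103 and 1847 and 1170 reads in UACC-62. DCT, SLC45A2, SLC24A5, GPNMB and BCL2A1 were likewise listed in both UACC-62 files alone. GPNMB, a melanosomal glycoprotein, was the richest of them with 9303 and 6420 reads, followed by the ion exchanger SLC24A5 with 1193 and 1235. MLANA, which encodes the antigen MART-1, had 18 reads in SK-Mel-103, in 2 bins, and 826 and 926 reads in UACC-62, in 65 and 92 bins. PMEL, TYRP1, OCA2 and GPR143 had no listed bin in either line, where bins in exons shared with another gene were not counted. The share over all genes was counted only for a stricter rule, with a limit on RPM, which DCT did not meet. No share was taken for listing in 1 line alone without that limit. Of the 12725 genes with any listed exonic bin, 140 (1.1%) were listed at 10 or more RPM in both UACC-62 files with no bin in SK-Mel-103, and 83 (0.652%) were listed at 10 or more RPM in SK-Mel-103 with no bin in UACC-62. The limit of 10 RPM was set after the values had been seen. Outside the gene lists, SERPINA3 and LGALS3 led the UACC-62 set with 24491 and 15845 reads and with 6934 and 5095 reads, and S100B, a gene of Schwann cells and melanocytes (4696 and 3727 reads), was also in it. The set of SK-Mel-103 was led by TMPRSS15 (5372 reads), SLC38A1 (3015 reads), TRHDE (2461 reads) and MT1E (2044 reads).

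**Figure D2:**
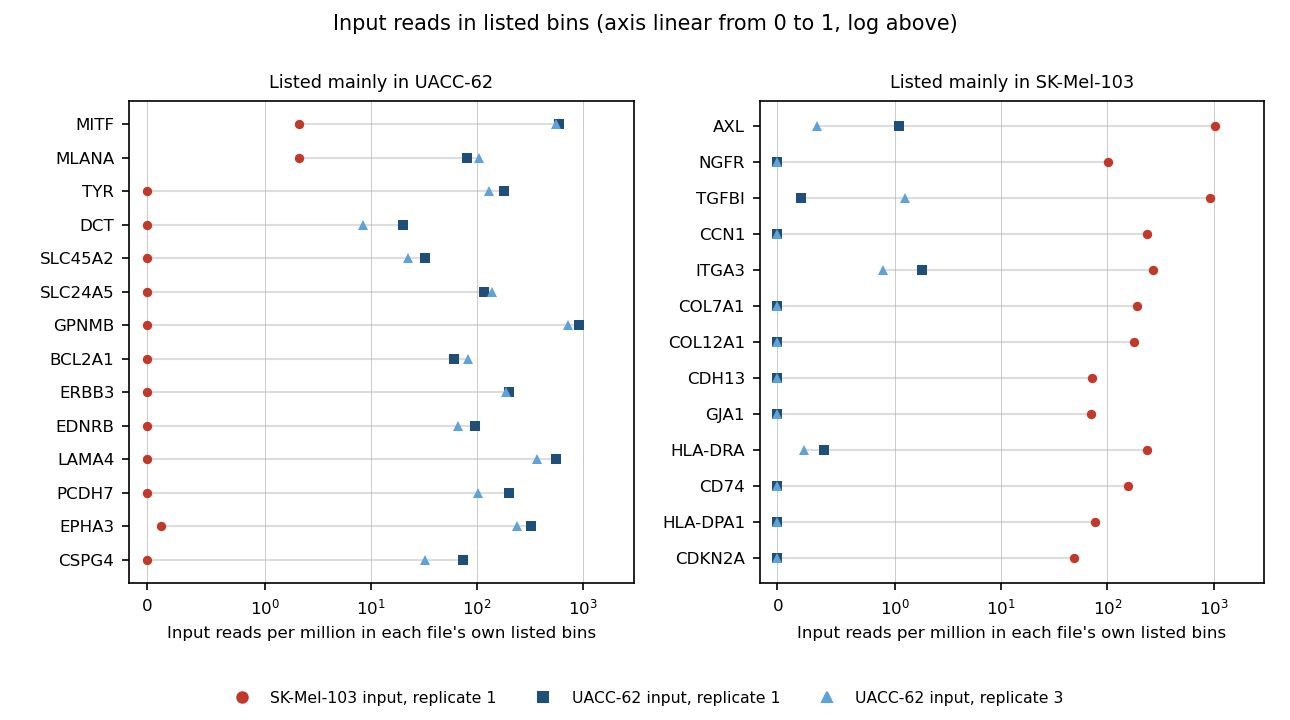
Input reads in RPM in each file's own listed bins (horizontal axis, linear from 0 to 1 and logarithmic above) for genes listed mainly in UACC-62 (left) and mainly in SK-Mel-103 (right). Circles are SK-Mel-103, squares and triangles the UACC-62 inputs, and a value of 0 means no read in a listed bin, not absence of RNA. MITF and MLANA sit at 2.13 RPM in SK-Mel-103, and AXL at 1028 RPM.

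Genes typical of dedifferentiated and invasive melanoma ran mostly in the opposite direction. Of 23 tested among 45 members, 13 were higher in SK-Mel-103, 2 were lower and 8 were not called, with a median log2 difference of 0.50. AXL had 1 common bin, with 4.495 RPM in SK-Mel-103 against 0.689 and 0 RPM (log2 difference 2.70, SE 0.56, adjusted p = 8.21e-05). In listed bins, AXL had 8694 reads in SK-Mel-103, in 190 bins, and 11 and 3 reads in UACC-62, in 3 and 4 bins. JUN, a subunit of the AP-1 transcription factor, had 10.4 RPM against 1.08 and 0.674 RPM (log2 difference 3.001, SE 0.44, adjusted p = 1.01e-07), and its partner FOSL1 had 11.1 RPM against 2.46 and 1.46 RPM (log2 difference 2.27, SE 0.39, adjusted p = 3.14e-06). NT5E, the ecto-enzyme CD73 that produces adenosine, had 13.0 RPM against 1.28 and 1.24 RPM (log2 difference 2.94, SE 0.40, adjusted p = 2.13e-08). CCN2, a matricellular target of YAP and TEAD factors, had 112 RPM against 23.2 and 20.0 RPM (log2 difference 2.35, SE 0.24, adjusted p = 2.76e-12). ZEB1, PLAUR, LOXL2, MMP14, CAV1, ANXA1, THBS1 and VIM made up the rest of those called higher. ZEB1, a repressor that replaces ZEB2 in the invasive state, had 33.8 RPM against 10.5 and 13.2 RPM (log2 difference 1.49, SE 0.27, adjusted p = 8.81e-06).

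Not all members of this programme followed it. WWTR1, which encodes the YAP paralogue TAZ, had 324.8 RPM in SK-Mel-103 against 1302 and 1246 RPM (log2 difference -1.97, SE 0.18, adjusted p = 7.72e-14). TWIST1, a factor of epithelial-mesenchymal transition, was also lower (log2 difference -1.33, adjusted p = 0.000719). YAP1 (-0.40, adjusted p = 0.0966), TEAD1 (0.10, adjusted p = 0.692) and TNC (0.18, adjusted p = 0.483) were not called. Several members without common bins were listed almost entirely in SK-Mel-103. The TGF-beta-induced matrix protein TGFBI had 7886 reads there against 2 and 11 in UACC-62. CCN1 had 1992 reads and the neural crest receptor NGFR had 852, against 0 in both UACC-62 inputs. SOX9 (195 reads against 0 and 2) and EGFR (258 reads against 18 and 26) were listed in the same manner. LOX and PLAU were listed in SK-Mel-103 alone. S100A4 and SNAI1 were listed in both UACC-62 files alone, S100A4 with 206 and 233 reads.

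**Figure D3:**
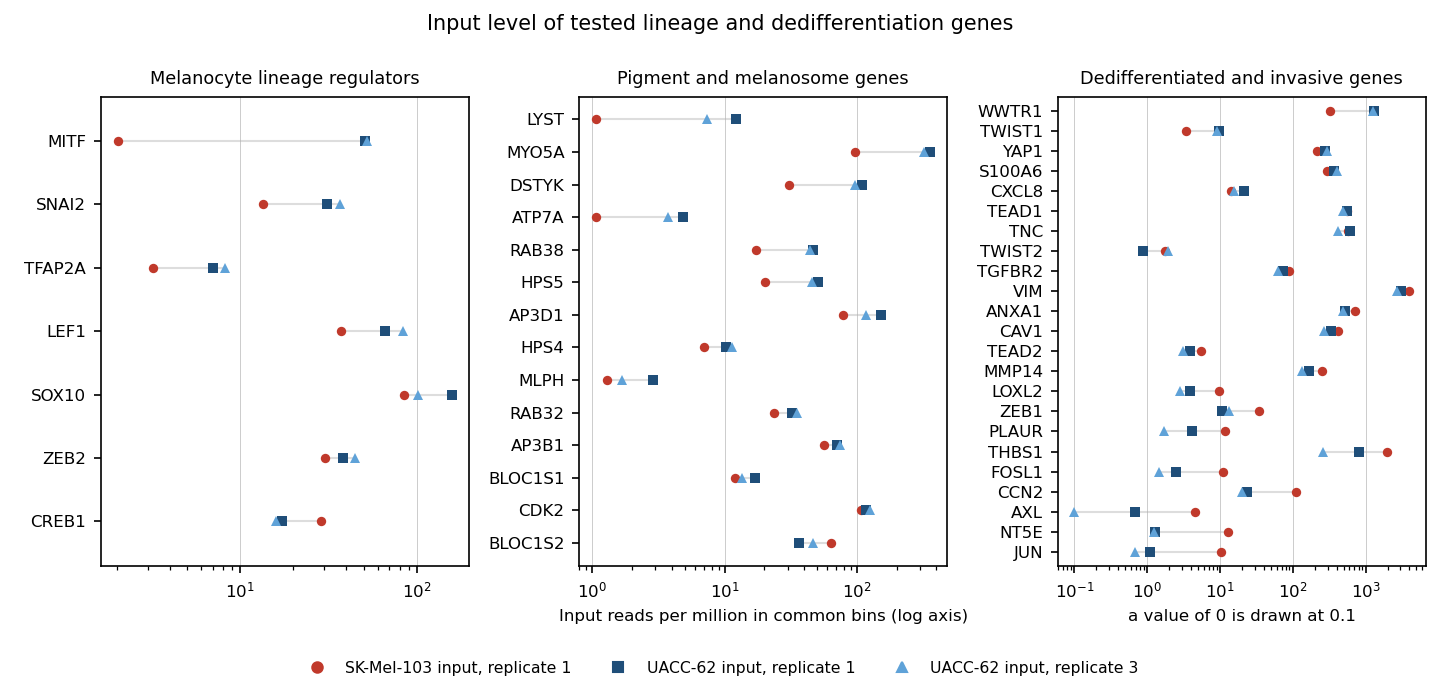
Input level in common bins (horizontal axis, RPM, logarithmic) of the 7 lineage regulators, 14 pigment and melanosome genes and 23 dedifferentiated or invasive melanoma genes that could be tested, ordered by difference. Circles are SK-Mel-103 and squares and triangles the UACC-62 inputs, and the AXL value of 0 in UACC-62 replicate 3 is drawn at 0.1. SK-Mel-103 lies at the left end for most lineage and pigment genes, as for MITF (2.01 RPM), and at the right end for most dedifferentiated genes, as for CCN2 (112 RPM).

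The signalling cascade in which the lines carry different mutations was measured next. Of the 25 tested members of the RAS to ERK pathway, 5 were higher, 7 were lower and 13 were not called, and the median log2 difference was 0.13. These counts are near the shares over all genes tested, 18.5% higher and 22.6% lower. NRAS (chr1, minus strand), mutant in SK-Mel-103, had 285.8 RPM in that line against 368.9 and 431.9 RPM in UACC-62 (log2 difference -0.48, SE 0.19, adjusted p = 0.0368). That call was kept in 4 of 11 alternative settings (adjusted p from 0.0347 to 0.822). BRAF, mutant in UACC-62, had 7.93 RPM against 7.48 and 6.97 RPM and did not pass (log2 difference 0.13, adjusted p = 0.783), with a sign that turned in the setting of each file's own bins (-0.92, adjusted p = 0.308). The kinase MAP2K2, which phosphorylates ERK, had 16.2 RPM against 54.3 and 25.3 RPM (log2 difference -1.17, adjusted p = 0.000433). The MAP2K2 call did not hold on coding bins only (adjusted p = 0.118) or without the filter on low values (adjusted p = 0.0662), and its log2 difference was -0.63 without UACC-62 replicate 1. RPS6KA3 and RPS6KA1, which encode RSK kinases activated by ERK, were both lower, by -1.51 (adjusted p = 2.37e-09) and -1.44 (adjusted p = 0.0116) on the log2 scale. For RPS6KA1 the log2 difference was only -0.10 with each file's own listed bins, and -0.785 with 2 RPM added in place of 0.5. RASA1, a GTPase-activating protein of RAS, was higher (1.15, adjusted p = 0.000137), as were RRAS2 (1.06) and SHOC2 (0.79), whereas the ERK inhibitor SPRED1 was lower (-0.72).

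Output and feedback genes of ERK included both directions. Of 20 tested among 26 members, 10 were lower, 6 were higher and 4 were not called (median log2 difference -0.79), beside 22.6% lower and 18.5% higher over all genes tested. The difference from all genes was not tested. The feedback inhibitor SPRY4 had 8.87 RPM in SK-Mel-103 against 146.8 and 130.3 RPM (log2 difference -3.89, SE 0.23, adjusted p = 1.37e-21). The dual-specificity phosphatases DUSP4 (-2.60, adjusted p = 8e-15) and DUSP6 (-1.53, adjusted p = 1.44e-08) were lower, the former with 19.6 RPM against 133.8 and 109.9 RPM and without a call on coding bins only (adjusted p = 0.318). The ETS factors ETV5, ETV1 and ETV4, all induced by ERK, had log2 differences of -2.23, -2.13 and -1.53. PHLDA1 (-1.83), MYC (-1.61) and TRIB1 (-1.22) completed the group together with TRIB2. CCND1, the G1 cyclin D1, was measured over 196 common bins and had 1026 RPM against 241.1 and 203 RPM (log2 difference 2.21, SE 0.19, adjusted p = 1.01e-14). FOSL1, ID1 (1.82), DUSP5 (1.79), IER2 (1.35) and ELK3 (0.64) were higher too. SPRY1 and FOS were listed in UACC-62 only, with 117 and 109 reads and with 68 and 33 reads, respectively, and SPRY2 was not called, with 19.9 RPM against 25 and 26.1 RPM.

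**Figure D4:**
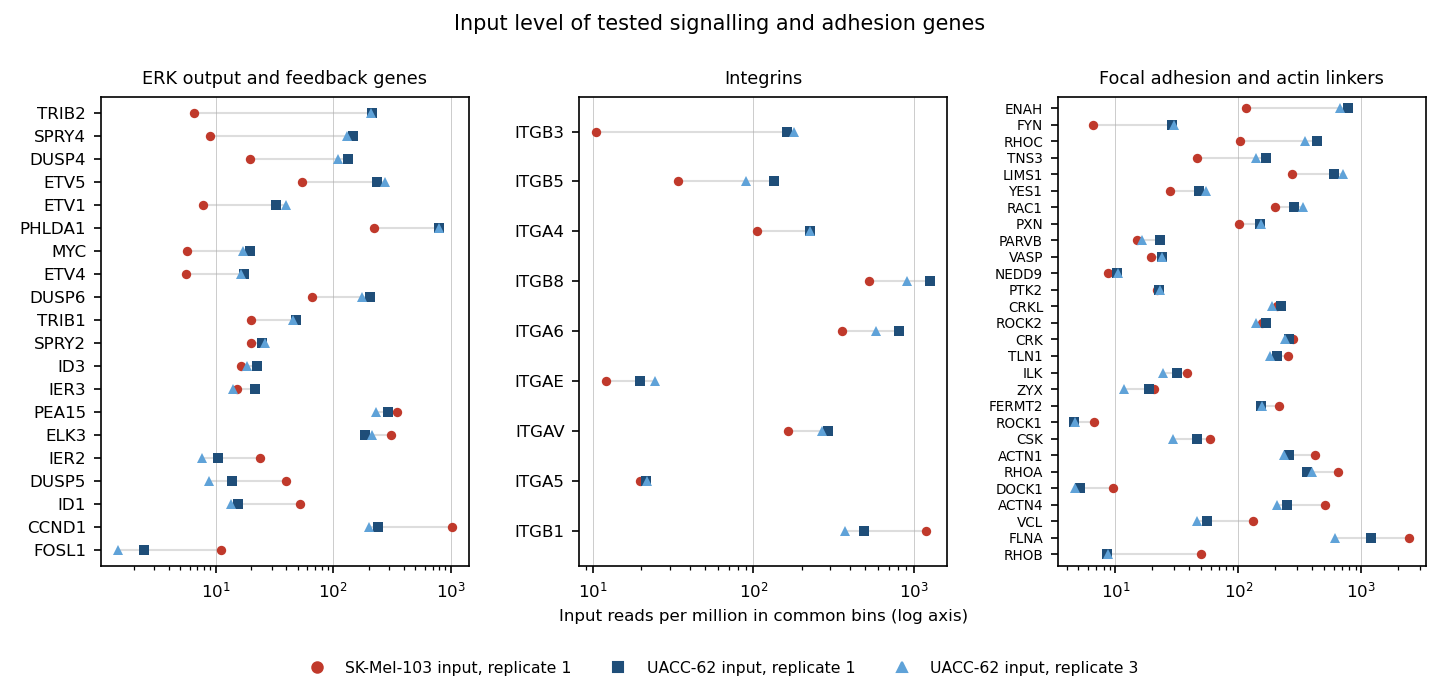
Input level in common bins (horizontal axis, RPM, logarithmic) of tested ERK output genes, integrins and focal adhesion genes, ordered by difference, with SK-Mel-103 as circles and the UACC-62 inputs as squares and triangles. The separation is widest for TRIB2 and SPRY4 in the first panel, for ITGB3 in the second, where ITGB1 runs the other way, and is wide for ENAH and RHOB in the third.

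The PI3K, AKT and mTOR pathway had 27 tested members, with 4 higher, 7 lower and 16 not called (median log2 difference -0.01). These counts, too, are near the shares over all genes tested, 18.5% higher and 22.6% lower. IRS1, an adaptor of the insulin receptor, was higher (1.01, adjusted p = 0.00051), while its relative IRS2 was lower (-0.99, adjusted p = 0.000556). The kinases SGK1 and SGK3, close relatives of AKT, differed most among genes called lower. SGK1 had 126.1 RPM against 563.8 and 506.9 RPM (log2 difference -2.08, SE 0.19, adjusted p = 9.46e-14), and SGK3 had 0.237 RPM against 2.95 and 2.70 RPM (log2 difference -2.17, SE 0.48, adjusted p = 0.000215). AKT1 and AKT2 were not called, with log2 differences of -0.19 and 0.35.

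Receptor tyrosine kinases and their ligands differed in both directions. Among 15 tested of 51 members, 6 were higher and 5 were lower, with a median log2 difference of 0.21. Besides AXL, the receptor of hepatocyte growth factor MET was higher, with 28.9 RPM against 9.05 and 6.85 RPM (log2 difference 1.81, SE 0.29, adjusted p = 6.15e-07). The ligands PDGFC, HBEGF and FGF5 were called with log2 differences of 1.75, 1.58 and 1.54, of which PDGFC did not pass with DESeq2 (adjusted p = 0.0585) and FGF5 had 0.94 without UACC-62 replicate 3. EPHB4, an ephrin receptor, had 2.13 RPM against 14.6 and 8.88 RPM (log2 difference -2.18, SE 0.33, adjusted p = 3.06e-07) and was not called on coding bins only (adjusted p = 0.107). TYRO3, a relative of AXL and an inducer of MITF, was lower (-1.27, adjusted p = 0.00258), as were FGF2 (-1.25) and DDR2 (-0.64). The neuropilins, coreceptors of VEGF and semaphorins, were split, NRP1 being higher (0.84, adjusted p = 0.00138) and NRP2 lower (-0.85, adjusted p = 0.00108). By listed reads, EPHA3 had 1 in SK-Mel-103 against 3321 and 2148 in UACC-62, whereas EPHA2 had 527 against 10 and 4.

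Integrins, the receptors that join cells to matrix, were mostly lower. Of 9 tested among 24 members, 7 were lower in SK-Mel-103, 1 was higher and 1 was not called (median log2 difference -0.94). ITGB3 (chr17:45331193-45391109, plus strand), the beta-3 subunit that pairs with alpha-V in the vitronectin receptor, had 10.4 RPM against 161.2 and 178.4 RPM (log2 difference -3.96, SE 0.22, adjusted p = 2.54e-22). ITGB5 had 33.8 RPM against 134.2 and 90.5 RPM (log2 difference -1.69, SE 0.23, adjusted p = 1.19e-08). ITGA4, ITGB8, ITGA6, ITGAE and ITGAV had log2 differences between -1.10 and -0.76. ITGB1, the common beta subunit of many collagen, laminin and fibronectin receptors, had 1187 RPM in SK-Mel-103 against 490.2 and 372.6 RPM (log2 difference 1.47, SE 0.19, adjusted p = 3.21e-09). ITGA5, which joins ITGB1 in the fibronectin receptor, had 19.5 RPM against 21.4 and 21.7 RPM and was not called (adjusted p = 0.699). ITGA3, a laminin receptor subunit without common bins, had 2285 listed reads in SK-Mel-103 against 18 and 8.

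Matrix genes were mainly lower, with 8 of 16 tested among 46 members, against 2 higher and 6 not called (median log2 difference -0.50). The laminin chains LAMC1 and LAMB1 had log2 differences of -2.99 (SE 0.22, adjusted p = 1.28e-17) and -1.71 (SE 0.21, adjusted p = 1.36e-09), with 25.8 RPM against 242.4 and 177.7 RPM for LAMC1. COL5A2 (-2.05, adjusted p = 1.52e-07), the basement membrane linker NID1 (-1.99, adjusted p = 0.000916), LUM (-1.47), FN1 (-1.42), SPARC (-0.90) and VCAN (-0.50) were lower too. LAMA4 was listed in UACC-62 alone, with 5675 and 3275 reads. THBS1, a thrombospondin, had 1953 RPM in SK-Mel-103 against 818.5 and 258.8 RPM (log2 difference 2.08, SE 0.26, adjusted p = 1.95e-09). Its UACC-62 inputs were far apart, its log2 difference was 1.25 without replicate 3, and with DESeq2 THBS1 did not pass (adjusted p = 0.314). THBS2 was the other gene called higher (0.91, adjusted p = 0.0244). COL7A1 and COL12A1 were listed in SK-Mel-103 with 1591 and 1493 reads, with 0 reads in UACC-62.

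Of the cadherins and junction genes, 8 of 31 could be tested, of which 4 were higher, 2 were lower and 2 were not called (median log2 difference 0.47). CDH2, or N-cadherin, had 62.7 RPM in SK-Mel-103 against 20.7 and 15.8 RPM (log2 difference 1.77, SE 0.25, adjusted p = 4.6e-08). NECTIN3, an adherens junction protein, had 143.4 RPM against 30.7 and 27.8 RPM (log2 difference 2.28, SE 0.23, adjusted p = 2.1e-12). The junction proteins TJP1 (0.70, adjusted p = 0.035) and CTNND1 (0.56, adjusted p = 0.0321) were nearer the threshold, and each was called in 6 of 10 alternative settings (adjusted p from 0.0143 to 0.242 and from 0.0133 to 0.17). The catenins CTNNA1 (-0.52, adjusted p = 0.021) and CTNNB1 (-0.49, adjusted p = 0.0215) were lower. CDH1, or E-cadherin, was scarcely read in either line, with 14 listed reads in SK-Mel-103 and 6 and 2 in UACC-62. Bins of CDH13 (603 reads) and of the gap junction gene GJA1 (593 reads) were listed in SK-Mel-103 alone, and those of PCDH7 (2038 and 919 reads) and GJB1 (1258 and 690 reads) in UACC-62 alone. Among other adhesion molecules, 4 of 16 tested (28 members) were higher and 7 were lower (median log2 difference -0.52). The syndecans were split, with SDC3 at 2.60 RPM against 45.1 and 35.2 RPM (log2 difference -3.70, SE 0.27, adjusted p = 1.99e-17), SDC2 lower as well (-3.31, adjusted p = 1.65e-12) and SDC4 higher (0.86, adjusted p = 0.00141). CD63, a tetraspanin of late endosomes and melanosomes, had 118 RPM against 711 and 517.7 RPM (log2 difference -2.36, SE 0.20, adjusted p = 2.99e-15). ALCAM (1.90, adjusted p = 5.61e-10) and MCAM (1.35, adjusted p = 3.34e-06), both adhesion molecules of melanoma cells, and the hyaluronan receptor CD44 (0.55, adjusted p = 0.0126) were higher, although CD44 had 0.37 without UACC-62 replicate 3. The melanoma proteoglycan CSPG4 was listed in UACC-62 only, with 761 and 292 reads, and ICAM1 had 7 listed reads in SK-Mel-103 against 1260 and 871.

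Focal adhesion and actin-linking genes were divided, with 9 higher, 8 lower and 12 not called among 29 tested (42 members, median log2 difference 0.16). The shares over all genes tested were 18.5% higher and 22.6% lower, and the difference from them was not tested. Actin crosslinkers and anchors were among the first group. FLNA, a filamin, had 2445 RPM against 1205 and 613.6 RPM (1.51, adjusted p = 2.28e-08), and VCL, ACTN4 and ACTN1 had log2 differences of 1.36, 1.18 and 0.77. RHOB, a small GTPase, had 49.8 RPM against 8.46 and 8.65 RPM (log2 difference 2.47, SE 0.27, adjusted p = 3.6e-11). Its relatives were split, with RHOA higher (0.78, adjusted p = 0.000516) and RHOC, at 102.4 RPM against 436.2 and 352.2 RPM, lower (log2 difference -1.93, SE 0.20, adjusted p = 3.97e-12). ENAH, an actin polymerase of the Ena/VASP family, had 116.2 RPM against 777.6 and 671.3 RPM (log2 difference -2.63, SE 0.19, adjusted p = 1.05e-17), and the kinase FYN had 6.51 RPM against 28.8 and 29.8 RPM (log2 difference -2.09, SE 0.26, adjusted p = 2.48e-09). The focal adhesion kinase PTK2 had 21.8 RPM against 22.4 and 23.1 RPM and was not called (95% confidence interval of the log2 difference -0.57 to 0.44).

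Antigens were the next group. Of the cancer-testis and melanoma antigens, 11 of 22 were tested, with 2 higher and 6 lower (median log2 difference -0.54). MAGEA4 had 56.2 RPM in SK-Mel-103 against 720.5 and 687.8 RPM (log2 difference -3.64, SE 0.19, adjusted p = 2.91e-23), and PRAME had 139.7 RPM against 356.8 and 325.8 RPM (-1.28, adjusted p = 2.08e-07). MAGED1 (-2.73) and MAGED2 (-1.68) were lower, and MAGEA10 (1.47) and MAGEA1 (0.93) were higher. Copies such as MAGEA3 and MAGEA6, or MAGEA2 and MAGEA12, are nearly identical, and reads may have been divided between them. In antigen presentation, 2 of 11 tested genes (26 members) were higher, 2 were lower and 7 were not called, near the shares over all genes tested (18.5% and 22.6%). B2M, the light chain of class I molecules, had 564 RPM against 594 and 549 RPM, with a log2 difference of -0.02 (adjusted p = 0.947). PDIA3 (-0.56, adjusted p = 0.0244) and CALR (-0.46, adjusted p = 0.0458), chaperones of class I assembly, were lower, but passed in only 7 of 11 and 4 of 11 alternative settings (adjusted p from 0.0222 to 0.135 and from 0.0412 to 0.328). CALR had 481.2 RPM in SK-Mel-103 against 776.3 and 564.6 RPM, and its log2 difference was -0.23 without UACC-62 replicate 1. Several class II genes were read almost only in SK-Mel-103. HLA-DRA had 1973 listed reads against 4 and 2, the invariant chain CD74 had 1315, and HLA-DPA1 had 642, the latter pair with no bin in UACC-62. HLA-DRB1, with 1 common bin, had 4.26 RPM against 0.590 and 0.337 RPM (log2 difference 2.32, SE 0.52, adjusted p = 0.000247). CIITA, the coactivator that switches on class II genes, had 35 listed reads in SK-Mel-103 and 0 in both UACC-62 inputs.

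Among genes of G1 control and its checkpoint, 7 of 21 tested (31 members) were higher and 2 were lower, with a median log2 difference of -0.02. RB1, the retinoblastoma gene, had 58.1 RPM against 17.9 and 20.45 RPM (log2 difference 1.58, SE 0.25, adjusted p = 4.48e-07), and E2F1, which it restrains, had 11.9 RPM against 4.23 and 4.16 RPM (1.41, adjusted p = 0.000507). The ubiquitin ligase MDM2 and its homologue MDM4 went in opposite directions, MDM4 being higher (1.48, adjusted p = 2.26e-07) and MDM2 lower (-0.75, adjusted p = 0.000592). CDKN1A, an inhibitor of cyclin-dependent kinases, was not called (-0.22, adjusted p = 0.415). CDKN2A (chr9), the melanoma susceptibility gene for p16 and p14ARF, had 410 reads in 26 bins in SK-Mel-103 and no bin in UACC-62, whereas its neighbour MTAP was read in both lines, with 332 RPM against 392.9 and 429 RPM (-0.31, adjusted p = 0.199). CDKN2B, CDKN2D and BBC3 were also listed in SK-Mel-103 alone, but with no more than 13 reads each. CDK4, CDK6 and CDK2 were within 0.24 of no difference on the log2 scale, and none was called.

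CELF1, the protein precipitated in the study, and DEK, an oncogene it binds, were both read at higher levels in SK-Mel-103. CELF1 was measured over 353 common bins, with 475 RPM against 307.9 and 230 RPM (log2 difference 0.83, SE 0.20, adjusted p = 0.000435). DEK had 762 RPM against 398 and 399 RPM (log2 difference 0.93, SE 0.18, adjusted p = 3.7e-05). The homologue CELF2 was lower, with 29.1 RPM against 48.6 and 60.2 RPM (log2 difference -0.88, SE 0.23, adjusted p = 0.00165). CELF1 and CELF2 did not pass on coding bins only (adjusted p = 0.0577 and 0.358), while DEK passed in every setting with common bins. For CELF1 the gap between the UACC-62 inputs on the log2 scale was 0.42, against 0.00 for DEK.

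Many defining markers of other cell types had no listed bin. This held for 4 of 8 endothelial markers (CDH5, TEK, EMCN and CLDN5) and 6 of 8 blood cell markers, with CD3E, CD14 and CD79A among them, and these lists summed to between 3.93 and 8.07 RPM and to at most 1.66 RPM of listed reads in the inputs. Among 10 fibroblast markers, COL1A1, COL1A2, COL3A1, PDGFRB and THY1 had no bin. The list summed to 1.18 RPM in SK-Mel-103 and to 25 and 16.9 RPM in UACC-62, and LUM, the only member tested, was lower (-1.47, adjusted p = 0.00468). The part of this shift in the matrix results was not tested. Keratinocyte and epithelial markers summed to 72.6 RPM in SK-Mel-103 and 53.04 and 52.0 RPM in UACC-62. Of these 10, KRT5, KRT14, KRT1, EPCAM and TP63 had no bins, and KRT10 (-1.06, adjusted p = 0.000979) and KRT18 (0.64, adjusted p = 0.0523) were the keratins that could be tested. Genes often taken as constant were called in 6 of 10 cases, where 18.5% of all genes tested were called higher and 22.6% lower. Among them, PPIA (-1.58, adjusted p = 4.67e-11), GAPDH (-0.83, adjusted p = 5.89e-05), TFRC, SDHA and YWHAZ were lower, ACTB was higher (0.47, adjusted p = 0.0276), whereas B2M, HPRT1 and RPLP0 were not called. SDHA passed in 4 of 10 alternative settings (adjusted p from 0.04 to 0.254), and its log2 difference of -0.55 was -0.35 without UACC-62 replicate 1. For ACTB the value was 0.24 without replicate 3. For PPIA, which has many processed pseudogenes, reads may have been shared with copies.

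**Figure D5:**
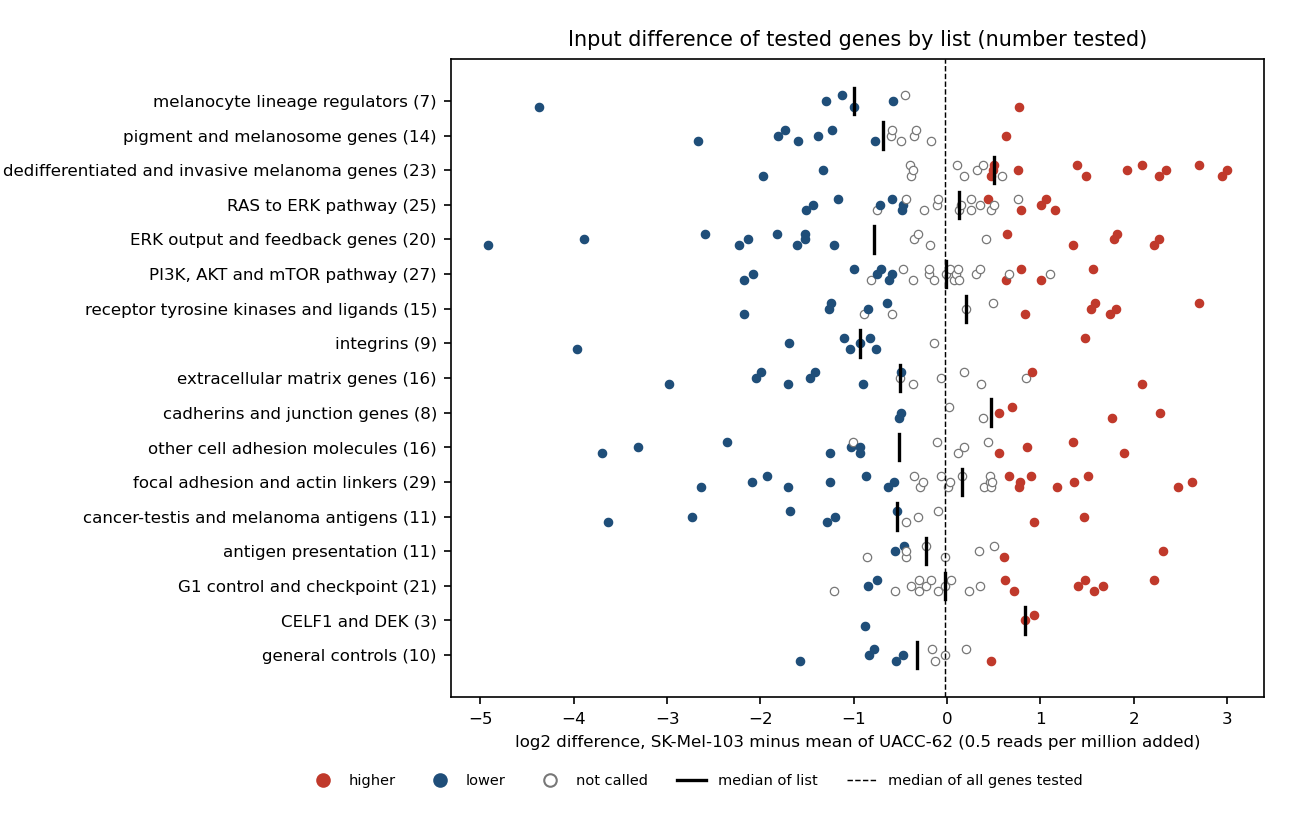
Log2 difference (SK-Mel-103 minus the mean of the UACC-62 inputs, with 0.5 RPM added) of every tested gene in the 17 lists with at least 3 tested members, filled where called. Bars mark the median of a list and the dashed line the median of all genes tested (-0.02). Integrins (-0.94), lineage regulators (-1.003) and ERK output genes (-0.79) lie to the left, and dedifferentiated genes (0.50) and CELF1 and DEK with CELF2 (0.83) to the right.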

How the data were processed

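RNA of crosslinked lysates (input) of SK-Mel-103 (n = 1) and UACC-62 (n = 2) was sequenced by the authors as 40-nt single-end reads and aligned to GRCh37 with TopHat2 (2.0.4 with Bowtie 0.12.7 per the submitters' processing notes; the methods name other versions) as a first-strand library. Peaks were called with Piranha in bins of 20 bp. The files deposited by the authors list passing bins only, with whole IP read counts, not normalized, and the input as a covariate signal, a share of that of the bin richest in input. Their p-value column was not used. Which input a file holds was taken from its IP label.

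Input reads were recovered by dividing the covariate by its smallest step (0.01 meaning none), and 100% of values were whole within 0.1. Bins listed in all files (282942, of which 252210 had their centre in exons of exactly 1 protein-coding gene) were summed per gene of GENCODE version 44 mapped to GRCh37, on the strand opposite to that listed, and divided by the file total. Mitochondrial bins were left out. Intervals cover no variation beyond these samples, and input reads outside listed bins are unknown. The design is 1 against 2, so that limma (eBayes with trend, 1 residual and 56.99 prior degrees of freedom) borrows its error across genes. A gene needed a mean of at least 1 RPM. Differences against each UACC-62 input alone were computed for called members. The script was tested on simulated data in which all samples varied alike. That test cannot check the variation assumed for SK-Mel-103.

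The samples, gene lists and tests were chosen with earlier results of these data known. Named genes are MITF, PMEL, MLANA, SOX10 and AXL, up to 4 called members of each list with the largest absolute difference, the 10 largest and 10 smallest differences among called genes with a mean of at least 10 RPM, and NRAS, BRAF, CELF1, DEK and CDKN2A. Some genes that the rule names are not reported here. Others are named to account for a list. Alternatives covered scaling, pseudocount, filter, edgeR, DESeq2, the choice of bins and leaving out each UACC-62 input. R 4.3.3, limma 3.58.1, edgeR 4.0.16, DESeq2 1.42.0, Python 3.11.15, pandas 2.3.3 and matplotlib 3.10.9 were used.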

Additional observations from a re-analysis of the deposited data

How the results depend on the processing

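The numbers of genes called higher and lower, 1263 and 1538, stayed within 1.5 times under both alternative scalings, both pseudocounts, both filters and edgeR's quasi-likelihood test (1264 and 1487). They fell to 600 and 933 with DESeq2, to 437 and 690 with coding bins only (5015 genes tested), to 281 and 397 with bins of more than 30 IP reads in all files (1618 genes tested), and to 264 and 247 with each file's own listed bins (9655 genes tested, sharing 22 and 169 calls with the common bins). The cause was not tested. With coding bins only, 940 and 1275 of the called genes were still tested and 435 and 674 stayed called, and with the IP read limit 267 of 366 and 364 of 467 did. No gene was called in opposite directions. BRAF, not called in any setting, was reversed to -0.92 with each file's own listed bins. No paired analysis was possible because the lines share only replicate number 1. Leaving out either UACC-62 input leaves no replicate for a test, and turned the sign of 0 called genes. This restates that SK-Mel-103 lay outside the UACC-62 values in every called gene, and is no separate check. SK-Mel-103 had no replicate, and bins are listed only where IP exceeded input, which differs between files.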

Other observations

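Histone genes with names of the H1, H2AC, H2BC, H3C and H4C series, a group chosen after the values were seen, were mostly higher in SK-Mel-103. Histone genes with other names were not counted. Of 55 tested, 48 were called higher, 3 were called lower (H2BC10, H3C7 and H4C16) and 4 were not called, with a median log2 difference of 1.32. Over all genes tested, 18.5% were called higher and 22.6% lower. H3C3, which encodes a core histone H3, had 437 RPM in SK-Mel-103 against 74.4 and 56.3 RPM in UACC-62 (log2 difference 2.75, SE 0.21), and the linker histone gene H1-2 had 821.9 RPM against 281.3 and 195.4 RPM (log2 difference 1.81, SE 0.20). Among histone genes without common bins, H3C8 (2083 and 1410 reads) and H2BC9 (1602 and 1139 reads) were listed in both UACC-62 files, with no bin in SK-Mel-103. The same held for H2AJ (226 and 149 reads), which lies outside these name series. Several histone genes are nearly identical copies, and reads may have been shared among them.

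Median differences were also taken by chromosome, a view chosen after the values were seen, and no test of evenness was made. The same shares over all genes apply. On chromosome 7, 16 of 327 genes were called higher and 167 were called lower (median log2 difference -0.69), and the X chromosome (-0.44) and chromosome 22 (-0.36) came next. Chromosome 10 lay at the other end, with 114 of 250 genes higher and 23 lower (median 0.69), followed by chromosomes 9 (0.37) and 13 (0.34). The median gap between the UACC-62 inputs was 0.10 on chromosome 7 and 0.03 on chromosome 10. Copy number of the lines was not analysed here.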
